A study of Mus musculus with 6 samples.

Results

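The G1 cyclins, cyclin-dependent kinases (CDKs) and CDK inhibitors were followed in mouse colonic crypts, the epithelial glands of the colon, as 10 genes: Ccnd1, Ccnd2, Ccnd3, Ccne1, Ccne2, Cdk2, Cdk4, Cdk6, Cdkn1b and Cdkn2b. They were found as the probe sets annotated to 1 of these symbols and no other, which gave 21 probe sets among the 20380 that carried a single gene symbol (10 genes of 12393). Crypt RNA was measured on 6 Affymetrix arrays, 2 for each of 3 groups, and all mice were male and heterozygous for Lgr5-lacZ, a reporter at the locus of the stem cell receptor Lgr5. Control crypts came from untreated mice of 6 to 8 weeks, and DSS crypts from mice of that age on day 2 of 1% dextran sulfate sodium, a polysaccharide that injures the colonic epithelium, in the drinking water. Tumor crypts came from adenomas of mice injected at 6 to 8 weeks with azoxymethane, a colon carcinogen, at 12.5 mg per kg. From day 5 these mice had cycles of 5 days of DSS, at 2, 1.5 and 1.0%, and 14 days of water, and the adenomas were taken 90 days after the injection. Each control or DSS array carried the pooled distal colons of 2 mice, and each tumor array 12 pooled adenomas from 2 mice. The labels call the arrays of a group biological replicates. The tumor mice were therefore older than the controls, and age and tumor cannot be told apart in these groups.

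Cells leave the first gap phase, G1, and begin DNA synthesis when cyclin-dependent kinases inactivate the retinoblastoma protein and release E2F transcription factors. The D-type cyclins bind Cdk4 and Cdk6 and act first, in response to growth signals. The E-type cyclins bind Cdk2 and act at the start of DNA synthesis. Inhibitors of one class, which includes p15, encoded by Cdkn2b, act on Cdk4 and Cdk6, and those of another, which includes p27, encoded by Cdkn1b, act mainly on cyclin E and Cdk2. In the intestine the cyclins and kinases of this group are best known from the dividing cells of the lower crypt, where Wnt signals keep cells cycling.

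The values were MAS5 signal intensities on a linear scale. Median intensities of the arrays lay between 94.8 and 131, the tumor arrays being highest, and the small number of arrays limits the precision. RNA integrity can be read from the 3′ to 5′ log2 ratio of actin and Gapdh control probes. In tumor crypts actin gave 0.95 and 1.04, below the 1.2 to 1.63 of control and DSS crypts, and Gapdh gave -0.05 and 0.04, below their 0.07 to 0.23. All 11 measured epithelial markers lay above the array median in every group, and Epcam, an epithelial adhesion gene, had intensities from 11360 to 14730 over the 6 arrays. Summed intensities of 7 colonocyte markers were 50230 and 55780 in control, 41550 and 45710 in DSS and 21220 and 16120 in tumor crypts. Those of 6 goblet cell markers were 73110 and 75550, 85270 and 76580, and 50920 and 37290. Those of 10 proliferation markers were 9827 and 9151, 7503 and 7647, and 17890 and 19170. Those of 12 myeloid markers were 2024 and 2676, 1917 and 2628, and 5425 and 10740, and those of 11 fibroblast markers 2582 and 5077, 3404 and 6411, and 5370 and 16150. Of the tumor myeloid sums, Lyz2 gave 2755 and 5154 and Cd14 gave 2020 and 2645. Of the tumor fibroblast sums, Vim gave 3477 and 6413 and Fn1 gave 719 and 2114. On tumor replicate 1 Col1a1, Col1a2, Col3a1, Lum, Pdgfra and Pdgfrb were at their lowest of the 6 arrays, while Dcn, Sparc and Thy1 were not. Leukocyte markers (10 genes) summed to 571 and 786, 332 and 825, and 419 and 1978, with the T cell genes Cd3e, Cd3g and Cd8a and the B cell genes Cd79a and Ms4a1 below the median of each array. Endothelial markers (7 genes) summed to 177 and 388, 199 and 449, and 407 and 1105, with Pecam1, Kdr, Tek and Cldn5 below the median of each array. Smooth muscle markers (7 genes) summed to 606 and 3230, 1106 and 3083, and 356 and 1059, with Lmod1 below the median of each array, and no marker of any of these lists was at 0. Tumor replicate 2 had the highest myeloid, fibroblast, leukocyte and endothelial sums of the 6 arrays. In all 3 groups replicate 2 had higher myeloid, fibroblast, leukocyte, endothelial and smooth muscle sums than replicate 1. The part of these sums and of the 3′ to 5′ ratios in the changes of the G1 genes was not tested. In such bulk samples fewer cells of a type and less RNA per cell cannot be told apart.

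Tumor crypts had higher levels of Ccnd1, Cdk4, Ccne1, Ccne2 and Cdk2 and a lower level of Cdkn2b than control crypts. Only Ccnd1 and Cdk4 passed in every alternative setting, and each of the others lost its call in some of them. Between DSS and control crypts none of the 9 genes that could be tested passed. A gene was tested on its brightest probe set, as log2 of the intensity plus 17.8, where that probe set lay above the median of the array on at least 2 arrays. A fold change on this scale understates the change of dim genes. Of the 10 genes, 9 met this filter, and Cdk6 did not. Of 21 probe sets 19 met it, and 6 of the 10 genes had a single probe set. In limma with Benjamini-Hochberg adjustment over 7456 genes, 6 of the 9 passed an adjusted p of 0.05 in tumor against control crypts, 5 higher and 1 lower. Of all genes tested 22.6% passed in this comparison, 12.9% higher and 9.75% lower. The median log2 change was 0.73 over the 9 genes and 0.046 over all 7456. The arrays of the groups did not overlap for 8 of the 9 genes, against 61.5% of all genes, 33.8% higher and 27.7% lower. Ccne1 entered the test only through its signal on the tumor arrays, so this count is a description of the genes tested and not of all 10. The count was 4 without control replicate 1, and 3 without control replicate 2, DSS replicate 1, DSS replicate 2 or tumor replicate 1. Without tumor replicate 2 it was 2, namely Ccnd1 and Cdk4. Ccne1 was not tested when either tumor array was left out.

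**Figure D1:**
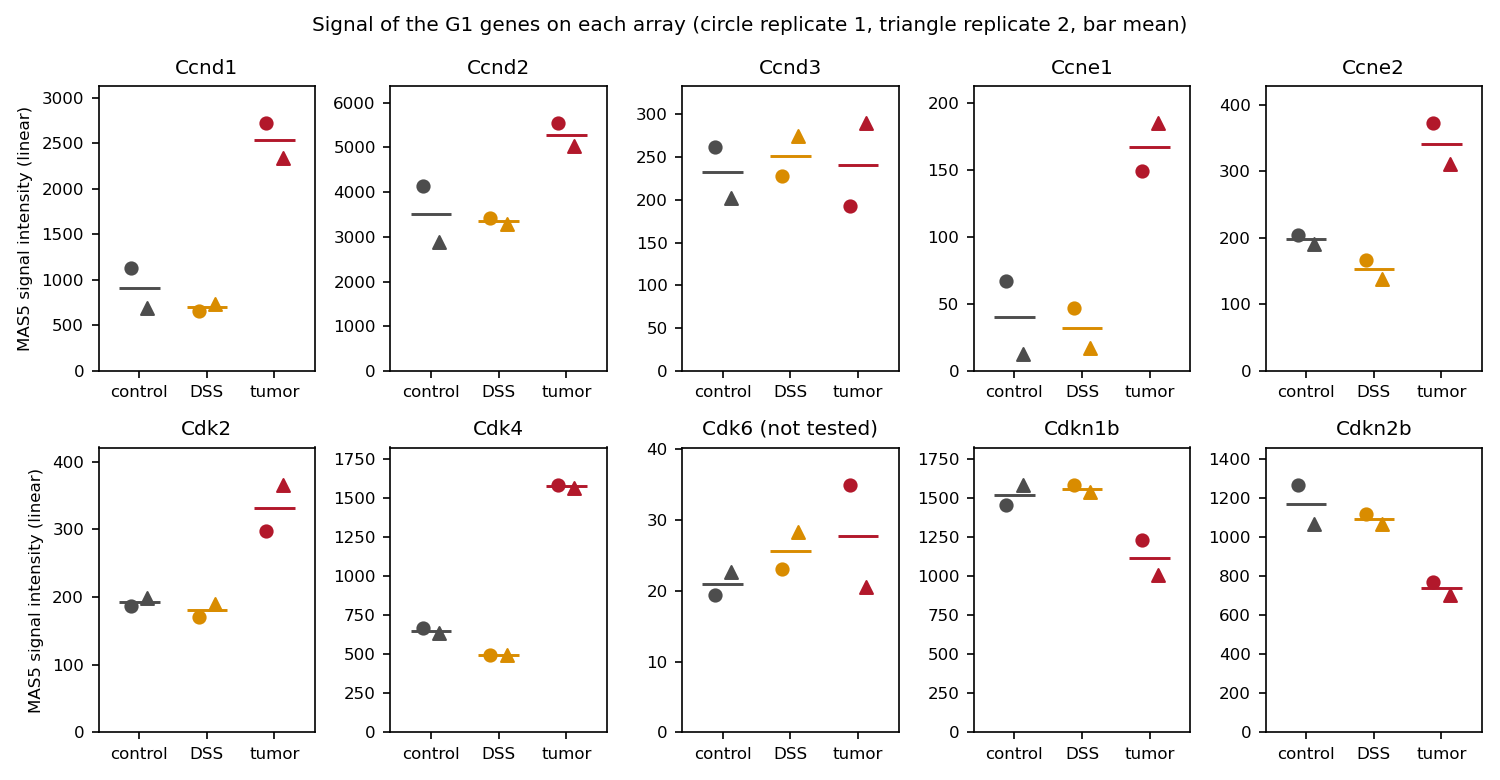
MAS5 signal intensity (vertical axes, linear, from 0, each panel with its own scale) of the 10 G1 genes on the 2 control, 2 DSS and 2 tumor arrays. Circles are replicate 1, triangles replicate 2 and bars group means; each gene is shown on its tested probe set, Cdk6 on its only one. Cdk4 and Ccnd1 stand on both tumor arrays above the other 4 arrays, at 1583 and 1562 and at 2721 and 2341.

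Among the D-type cyclins, Ccnd1, the cyclin that couples growth signals to Cdk4 and Cdk6, rose most in tumor crypts. Its tested probe set had intensities of 1132 and 686 on the control arrays, 659 and 735 on the DSS arrays and 2721 and 2341 on the tumor arrays. Both tumor arrays lay above the other 4, while control and DSS arrays overlapped, with control replicate 1 the highest of them. The log2 change from control to tumor was 1.50 ± 0.24 (SE, n = 2 and 2), a 2.83-fold rise (adjusted p = 0.00387 in limma). Arrays that carry the same number differed by 1.25 and 1.75. A further Ccnd1 probe set gave 620 and 497 in control, 434 and 477 in DSS and 1918 and 1839 in tumor crypts, a log2 change of 1.73 ± 0.18. The dimmest one gave 357 and 142, 209 and 157, and 577 and 377, with a change of 0.99 ± 0.40. When each of 12146 probe sets was fitted on its own, 9 of the 19 of the G1 genes passed, 8 higher and 1 lower, against 19.6% of all probe sets, 11.2% higher and 8.33% lower. Both brighter Ccnd1 probe sets were among them (adjusted p = 0.00503 and 0.000703). The dimmest did not (adjusted p = 0.122), although its tumor arrays lay above all the others. The call of Ccnd1 held in each of the 19 alternative settings, with log2 changes from 1.14 to 1.85.

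Ccnd2, a second D-type cyclin, was measured by 7 probe sets, which are annotated to the same gene and are not independent. Its tested probe set had intensities of 4133 and 2875 in control, 3430 and 3276 in DSS and 5542 and 5024 in tumor crypts. Both tumor arrays were above the other 4, and control replicate 1 was nearest to them. The change was 0.61 ± 0.19 on the log2 scale, or 1.53-fold, and did not pass (adjusted p = 0.0545). Replicates 1 differed by 0.42 and replicates 2 by 0.80. The 7 probe sets had changes of 0.20 to 0.61, all positive, and none passed on its own (lowest adjusted p = 0.0617). Tumor and control arrays did not overlap in 4 of the 7. The control arrays lay far apart on this gene, and without control replicate 1 the change was 0.87 and passed (adjusted p = 0.0238), while without control replicate 2 it was 0.351 and did not. With each array centred on its median it was 0.363 (adjusted p = 0.334). Of 19 alternative settings 5 gave a call.

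Ccnd3, the third D-type cyclin, had 1 probe set, with intensities of 262 and 202 in control, 228 and 274 in DSS and 192 and 290 in tumor crypts (289.5 before rounding). The 2 tumor arrays enclosed all 4 others, so the groups overlapped fully. Tumor minus control was 0.035 ± 0.25 on the log2 scale, with a 95% interval from -0.54 to 0.61 (adjusted p = 0.937). This sign turned with quantile normalization (-0.13) and with each array centred on its median (-0.21), and it turned without control replicate 2 (-0.14) and without tumor replicate 2 (-0.24). For Ccnd1 the 95% interval was 0.95 to 2.05, and the difference between the changes of Ccnd3 and Ccnd1 was not tested.

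Cdk4, the catalytic partner of the D-type cyclins, had the smallest p of the group in tumor against control crypts. Its tested probe set had intensities of 669 and 633 in control, 496 and 496 in DSS and 1583 and 1562 in tumor crypts. The 3 groups did not overlap, with DSS lowest and tumor highest. Cdk4 rose by 1.25 ± 0.16, or 2.38-fold (adjusted p = 0.00118), and by 1.22 and 1.28 from replicate to replicate of the same number. The tested probe set is of a kind that Affymetrix marks as able to bind related sequences, but both other probe sets of the gene gave like changes, of 1.24 ± 0.18 and 1.35 ± 0.18 (adjusted p = 0.00345 and 0.00217 in the probe-set fit). Their intensities were 585 and 554, 431 and 538, and 1270 and 1479 for the first, and 545 and 466, 398 and 331, and 1280 and 1344 for the second. The call of Cdk4 held in each of the 19 alternative settings, at 1.00 to 1.29. By rank of p it stood at 236 of 7456 genes.

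The 250 bases before the start of Cdk4 are shown because Cdk4 had the smallest p of the group and because the window holds repeated copies of a known element. RefSeq promoter windows were found for 7 of the 10 genes. The window of Cdk4 is chr10:127063285-127063534 of GRCm38.p6, plus strand, written 5′ to 3′, with the matches to the searched letters in capitals. It contains 4 copies of CACGTG, the E-box bound by Myc family factors, which reads alike on both strands, and 1 match to CTTTGAT, a TCF/LEF element, on the minus strand, where it appears as ATCAAAG.
Cdk4: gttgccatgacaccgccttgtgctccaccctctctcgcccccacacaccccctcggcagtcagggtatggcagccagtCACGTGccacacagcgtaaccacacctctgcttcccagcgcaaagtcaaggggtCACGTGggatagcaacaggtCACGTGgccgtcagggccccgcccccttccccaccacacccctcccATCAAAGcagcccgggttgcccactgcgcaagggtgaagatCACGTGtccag
The E-boxes begin 172, 118, 98 and 11 bases before the start, and the TCF/LEF match 52 bases before it. Of 32851 windows of this length, 6.02% hold at least 1 CACGTG and 7 hold at least 4, and 3.21% hold CTTTGAT on either strand. Cdkn2b, the gene of the group that fell, is set beside it from chr4:89311033-89311282 of GRCm38.p6, minus strand, and holds none of the letters searched, so nothing is in capitals.
Cdkn2b: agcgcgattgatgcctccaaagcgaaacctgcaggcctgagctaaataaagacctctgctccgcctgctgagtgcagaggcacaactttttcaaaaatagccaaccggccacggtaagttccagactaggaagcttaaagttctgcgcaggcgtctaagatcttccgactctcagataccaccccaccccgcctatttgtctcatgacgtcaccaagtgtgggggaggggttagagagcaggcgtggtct
Besides these, the E2F forms TTTCGCGC and TTTGGCGC, the TCF/LEF form CTTTGAA and the FOXO form GTAAACA were searched on both strands, and they are held by 0.256, 0.417, 4.46 and 3.17% of all windows. Among the windows of the group, the only other matches were 1 CACGTG before Cdk6 and 1 GTAAACA in 1 of the 2 windows of Ccnd3. The windows of Ccne1 and Cdk2, which also rose, held no match, like that of Cdkn2b. A match is a description of the letters and not a binding site.

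Cdk6, the other kinase of the D-type cyclins, had a single probe set near the floor of the arrays. Its intensities were 19.4 and 22.6 in control, 23.0 and 28.3 in DSS and 34.98 and 20.6 in tumor crypts, all below the median of their array. Without the filter its log2 change from control to tumor was 0.22 ± 0.28 (adjusted p = 0.692). At this signal no difference was detectable.

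The E-type cyclins and Cdk2 act next in the order of the cycle. Ccne1, which activates Cdk2 at the start of DNA synthesis, had intensities of 67.2 and 12.6 in control, 46.9 and 17.1 in DSS and 149 and 185 in tumor crypts. All 4 control and DSS arrays were below the array median, and both tumor arrays were above it. Ccne1 rose by 1.86 ± 0.53 on the log2 scale (adjusted p = 0.0394), with 0.98 for replicates 1 and 2.74 for replicates 2. It rested on control values near the added 17.8, and it was 2.46 with a pseudocount of 1 (adjusted p = 0.0657) and 0.92 with the median intensity as pseudocount. Without control replicate 2 the change was 1.115 and did not pass (adjusted p = 0.194), and without control replicate 1 it was 2.601. Quantile normalization (adjusted p = 0.076) and no filter (adjusted p = 0.0688) also ended the call.

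Ccne2, the second E-type cyclin, had intensities of 204 and 191 in control, 167 and 139 in DSS and 372 and 311 in tumor crypts. The 3 groups did not overlap, with DSS lowest and tumor highest. Ccne2 rose by 0.73 ± 0.21 on the log2 scale, or 1.66-fold (adjusted p = 0.0368). Replicates 1 gave 0.81 and replicates 2 gave 0.65. The margin of the call was thin, and it ended without any 1 of the 6 arrays, at changes from 0.61 without tumor replicate 1 to 0.86 without tumor replicate 2, with adjusted p from 0.0584 to 0.151. The DSS arrays enter this contrast only through the shared estimate of spread and the genes tested. In all, 7 of 18 alternative settings kept the call.

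Cdk2, the kinase of the E-type cyclins, had intensities of 186 and 199 in control, 170 and 190 in DSS and 297 and 366 in tumor crypts (170.5, 190.0 and 297.5 before rounding). Both tumor arrays lay above the other 4, which overlapped. Cdk2 rose by 0.73 ± 0.20 on the log2 scale, or 1.65-fold (adjusted p = 0.0358). Same-numbered arrays gave 0.63 and 0.82. The call ended without control replicate 1 (0.68), control replicate 2 (0.77), DSS replicate 1 or 2 (0.73 each) and tumor replicate 2 (0.58), and 7 of 18 alternative settings kept it.

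Of the inhibitors in this group of genes, 1 fell and 1 did not pass, and other CDK inhibitors are given below with the partners. Cdkn2b, which encodes the Cdk4 and Cdk6 inhibitor p15 and is known as a target of TGF-beta, had intensities of 1267 and 1066 in control, 1118 and 1068 in DSS and 770.1 and 705 in tumor crypts. Both tumor arrays lay below the other 4, and the control and DSS arrays overlapped. The log2 change from control to tumor was -0.65 ± 0.17, which is 1.56-fold lower (adjusted p = 0.0279), at -0.71 and -0.58 between arrays of the same number. The call ended without control replicate 1 (-0.52), DSS replicate 1 or 2 (-0.65 each), tumor replicate 1 (-0.71) and tumor replicate 2 (-0.58), and 11 of 19 alternative settings kept it. Cdkn1b, which encodes p27, an inhibitor of cyclin E and Cdk2, had intensities of 1459 and 1588 in control, 1588 and 1538 in DSS and 1235 and 1006 in tumor crypts. Both tumor arrays were the lowest of the 6. Its log2 change of -0.44 ± 0.17 did not pass (adjusted p = 0.0963), and 1 of 19 alternative settings, each array centred on its median, called it (-0.69, adjusted p = 0.0494). The other Cdkn1b probe set was below the array median on all arrays, at 22.6 to 47.5.

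**Figure D2:**
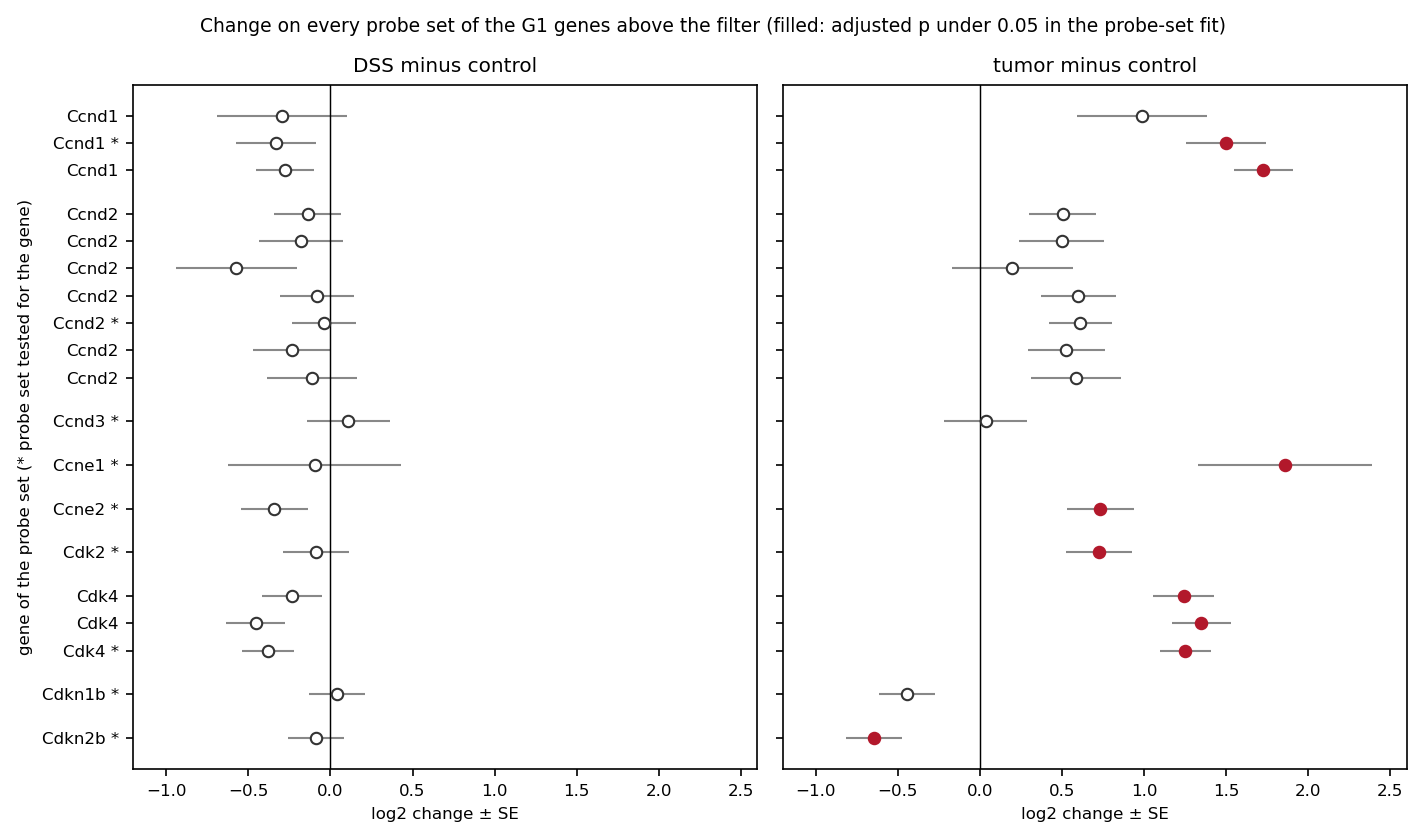
Log2 change with its standard error (horizontal axes) of the 19 probe sets of the G1 genes that passed the filter, for DSS minus control (left) and tumor minus control (right), each fitted on its own; stars mark the probe set tested for its gene and filled points an adjusted p under 0.05. In tumor minus control 9 points are filled, 8 to the right of 0 and Cdkn2b to the left, while in DSS minus control none is filled and 17 of 19 lie left of 0. Points of the same gene are not independent.

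DSS crypts were compared with control crypts for the early response to injury of the epithelium. None of the 9 genes passed in limma, where 0 of all 7456 genes passed, so percent called was 0, and 187 genes had an unadjusted p under 0.05. Among the G1 genes 1 had, Cdk4, at a log2 change of -0.38 ± 0.16 (unadjusted p = 0.0401, adjusted p = 1). All 3 Cdk4 probe sets were lower on both DSS arrays than on both control arrays, with changes of -0.23 to -0.46. The tested probe sets of 2 genes, Cdk4 and Ccne2, had groups that did not overlap, both lower in DSS crypts, against 26.5% of all genes, 12.8% higher and 13.7% lower. Ccne2 had a change of -0.34 ± 0.21, at -0.27 for replicates 1 and -0.415 for replicates 2. Ccnd1 had one of -0.33 ± 0.24 on its tested probe set, which was -0.765 for replicates 1 and 0.098 for replicates 2. Without control replicate 1 the change of Ccnd1 was 0.021, so its direction rested on that array. The 95% intervals for the remaining genes were -0.48 to 0.40 for Ccnd2, -0.47 to 0.69 for Ccnd3, -0.56 to 0.38 for Cdk2, -0.35 to 0.43 for Cdkn1b, -0.47 to 0.30 for Cdkn2b and -1.32 to 1.13 for Ccne1. Of the 19 probe sets 17 had a negative change, 7 of them from Ccnd2 alone, and probe sets of 1 gene are not independent. Over all 12146 probe sets the median change was 0.001, and their share of negative changes is not given here. Without control replicate 1 the changes of Ccnd2 (0.22), Ccne1 (0.647) and Cdkn2b (0.035) were also positive, and that of Cdkn1b was negative (-0.023). The median change of the 9 genes was -0.089, against 0.004 for all genes. The summed proliferation markers were lower on both DSS arrays, but not every marker was. Pcna, Top2a, Mcm3, Mcm4, Mcm5, Mcm6 and Mcm7 were lower on both, and Mki67 and Birc5 overlapped the controls. Mcm2 was higher on both, at 373.5 and 407.6 against 278.8 and 141.3 in control crypts.

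Tumor crypts were then set against DSS crypts. Both groups had received DSS, but dose, length and time since exposure differed, and only the tumor mice had azoxymethane and were older. These differences and tumor cannot be told apart in this comparison. The comparison has the tumor arrays in common with the one against controls, so the values are given side by side and are not independent support. Ccne1 again entered only through its tumor arrays, so the counts and medians that follow describe the genes tested and support nothing further. Here 7 of the 9 genes passed, 6 higher and 1 lower, against 26.2% of all genes, 14.9% higher and 11.3% lower. The median change was 0.815 over the 9 genes and 0.045 over all genes. Arrays did not overlap for 8 of the 9, against 66% of all genes, 35.3% higher and 30.7% lower. In the fit by probe set 10 of the 19 passed, 9 higher and 1 lower, against 23% of all probe sets, 13.3% higher and 9.74% lower. Cdk4 rose by 1.63 ± 0.16 (adjusted p = 0.00032), Ccnd1 by 1.83 ± 0.24 (adjusted p = 0.00139) and Ccne2 by 1.08 ± 0.21 (adjusted p = 0.00737). Cdk2 rose by 0.815 ± 0.20 (adjusted p = 0.0209), Ccne1 by 1.95 ± 0.53 (adjusted p = 0.0298) and Ccnd2 by 0.65 ± 0.19 (adjusted p = 0.0393). Cdkn2b fell by 0.56 ± 0.17 on the log2 scale (adjusted p = 0.0417), and Cdkn1b (-0.48 ± 0.17, adjusted p = 0.0697) and Ccnd3 (-0.075 ± 0.25) did not pass. All 7 Ccnd2 probe sets had tumor arrays above both DSS arrays, and 1 of the 7, the tested one, passed on its own (adjusted p = 0.0444). Calls of Cdk4 and Ccnd1 held in each of 19 settings, at 1.396 to 1.66 and 1.60 to 1.97. Other calls ended with 1 array left out: without DSS replicate 1 for Ccnd2 (0.69), Cdk2 (0.74) and Cdkn2b (-0.52), and without DSS replicate 2 for Ccnd2 (0.62), Ccne1 (1.51), Ccne2 (0.96), Cdk2 (0.89) and Cdkn2b (-0.59). Without tumor replicate 1 those of Ccnd2 (0.58) and Cdkn2b (-0.62) ended, and without tumor replicate 2 those of Ccnd2 (0.72), Cdk2 (0.67) and Cdkn2b (-0.495). The count was 4 without DSS replicate 1 or tumor replicate 1, 3 without tumor replicate 2 and 2 without DSS replicate 2, with Ccne1 not tested when a tumor array was left out.

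**Figure D3:**
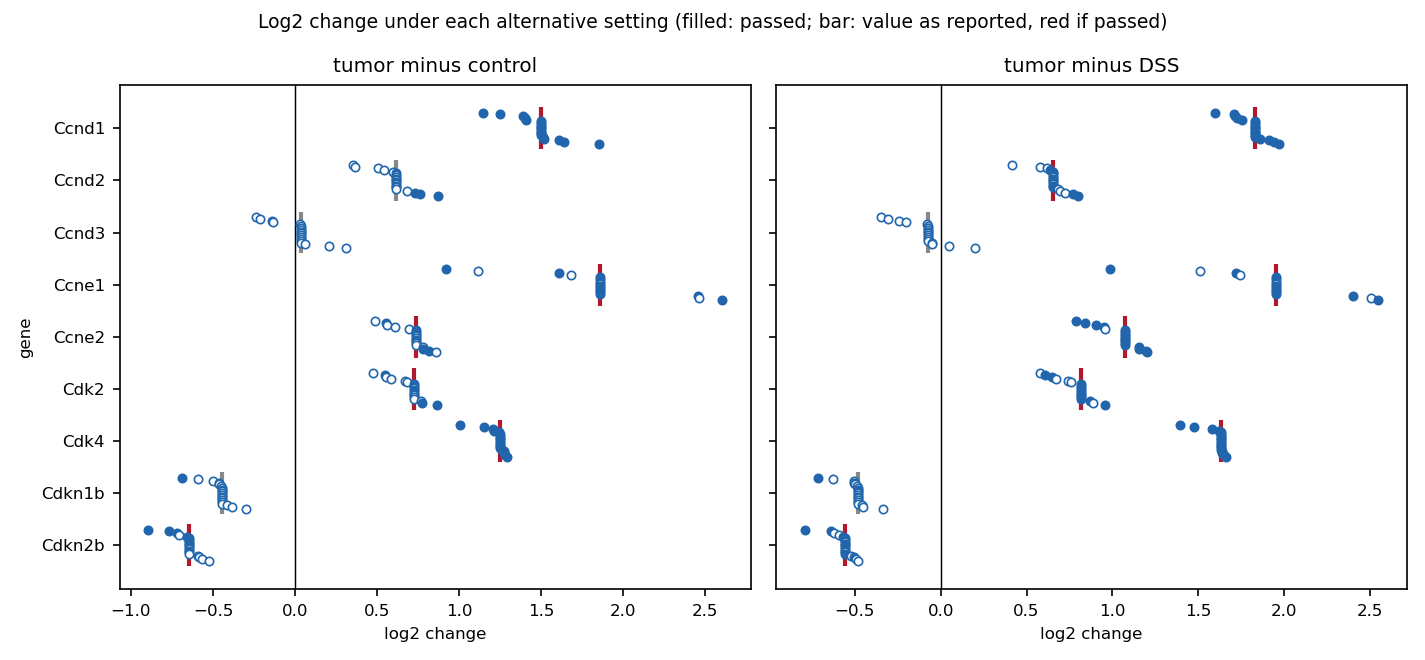
Log2 change (horizontal axes) of each tested G1 gene under each alternative setting, for tumor minus control (left) and tumor minus DSS (right); points are settings, filled where the gene passed, and vertical bars the values as reported, red where passed. Every point of Ccnd1 and Cdk4 is filled in both panels, from 1.14 and 1.00 upward on the left, and Ccnd3 has points on both sides of 0.

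The partners of these genes were taken from 5 lists with 51 genes, of which 37 were tested. Their counts are to be read against the shares of all genes called, 22.6% in tumor against control crypts (12.9% higher) and 26.2% in tumor against DSS crypts (14.9% higher). Among other CDK inhibitors, 1 of the 4 tested rose in tumor against control crypts. It was Cdkn1c, which encodes p57, of the same class as p27. Its intensities were 78 and 43.3 in control, 60.7 and 70.3 in DSS and 410 and 541 in tumor crypts, a log2 change of 2.68 ± 0.30 (adjusted p = 0.000695). All control and DSS arrays of Cdkn1c were below the array median, so it entered the test only through the tumor arrays. Cdkn1a, the p53-responsive inhibitor p21, had a change of -0.35 ± 0.16 in DSS crypts that did not pass (adjusted p = 1), the smallest p of its list there. Cdkn2a was below the filter, at 3.8 and 2.7 in control, 2.9 and 7.8 in DSS and 58.6 and 66.5 in tumor crypts. So was E2f1, the founding E2F gene, whose probe sets had 10.45 to 51.5 in control and DSS and 54.0 to 89.6 in tumor crypts. All these values were below the array median, and neither gene was tested.

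Of 7 tested genes of the Rb and E2F list, 1 rose in tumor against control crypts, against 12.9% of all genes: Tfdp1, the dimer partner of E2F proteins. Its intensities were 1209 and 1130 in control, 835 and 877 in DSS and 1694 and 1652 in tumor crypts, so the 3 groups did not overlap in the same order as for Cdk4. The change of Tfdp1 was 0.51 ± 0.15 against control (adjusted p = 0.0464), -0.44 ± 0.15 in DSS against control (adjusted p = 1) and 0.95 ± 0.15 in tumor against DSS crypts (adjusted p = 0.0034). The call against control held in 6 of 19 settings and ended without any 1 of the 6 arrays (0.46 to 0.56), while that against DSS held in all 19. Against DSS crypts E2f8, a repressor among the E2F proteins, rose by 0.97 ± 0.27 (adjusted p = 0.0333), and Rbl2, which encodes the Rb relative p130, fell by 0.59 ± 0.18 (adjusted p = 0.0473). The E2f8 call ended without DSS replicate 1 (0.82), DSS replicate 2 (1.12) and tumor replicate 2 (0.73), and that of Rbl2 without any 1 of the 6 arrays (-0.48 to -0.71). The median over the list was -0.27 against control crypts, below that of all genes.

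None of the 6 tested CDK activators passed in any comparison. Cdc37, a co-chaperone of Cdk4, had the smallest p against control, at 0.44 ± 0.16 (adjusted p = 0.0849), and Ccnh, a subunit of the CDK-activating kinase, had it against DSS, at 0.46 ± 0.16 (adjusted p = 0.065), and in DSS against control crypts, at -0.18 ± 0.16 (adjusted p = 1). Among 10 tested genes of cyclin and inhibitor turnover, 1 rose against control, with 12.9% of all genes higher: Cks1b, a cofactor in the degradation of p27. Its intensities were 1110 and 916 in control, 759 and 844 in DSS and 2799 and 3100 in tumor crypts. Cks1b rose by 1.53 ± 0.17 (adjusted p = 0.000743) and by 1.86 ± 0.17 against DSS crypts (adjusted p = 0.000281), in all 19 settings for both. Skp2, which encodes the ubiquitin ligase subunit that recognizes p27 together with that cofactor, had intensities of 149.8 and 150.7 in control, 85.5 and 98.4 in DSS and 248 and 239 in tumor crypts. The 3 groups of Skp2 did not overlap, and its changes were -0.62 ± 0.22 in DSS (adjusted p = 1), 0.64 ± 0.22 in tumor against control (adjusted p = 0.0696) and 1.25 ± 0.22 in tumor against DSS crypts (adjusted p = 0.00465).

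Among 10 tested later and other cyclins and CDKs, 3 rose in tumor against control crypts, against 12.9% of all genes. The list also held Ccng1, Ccng2, Ccni, Ccnc, Cdk5, Cdk8 and Cdk9, which are not core genes of S phase or mitosis. Its count therefore does not describe later-cycle genes alone. The 3 that rose were Ccnb2 at 0.92 ± 0.21 (adjusted p = 0.016), Ccna2 at 0.82 ± 0.18 (adjusted p = 0.0137) and Cdk1 at 0.79 ± 0.19 (adjusted p = 0.0223), genes of S phase and mitosis. Against DSS crypts 2 of them passed, Cdk1 at 1.00 ± 0.19 (adjusted p = 0.00746) and Ccna2 at 0.78 ± 0.18 (adjusted p = 0.0144). In tumor against control crypts, the call of Cdk1 ended without control replicate 1 (0.63) or tumor replicate 1 (0.625). That of Ccnb2 ended without control replicate 2 (0.75) or tumor replicate 1 (0.76), and that of Ccna2 without control replicate 2 (0.64) or tumor replicate 2 (0.84). Centring each array on its median ended all 3 calls, for Ccna2 at 0.57 (adjusted p = 0.0905), for Ccnb2 at 0.67 (adjusted p = 0.0794) and for Cdk1 at 0.54 (adjusted p = 0.124). Against DSS crypts the call of Ccna2 ended with centring (0.54) and without DSS replicate 1 (0.79), DSS replicate 2 (0.77) and tumor replicate 2 (0.805). In DSS against control crypts none of the 10 passed, and Ccng2, an unconventional cyclin, had the smallest p, with a change of -0.29 ± 0.15 (adjusted p = 1).

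**Figure D4:**
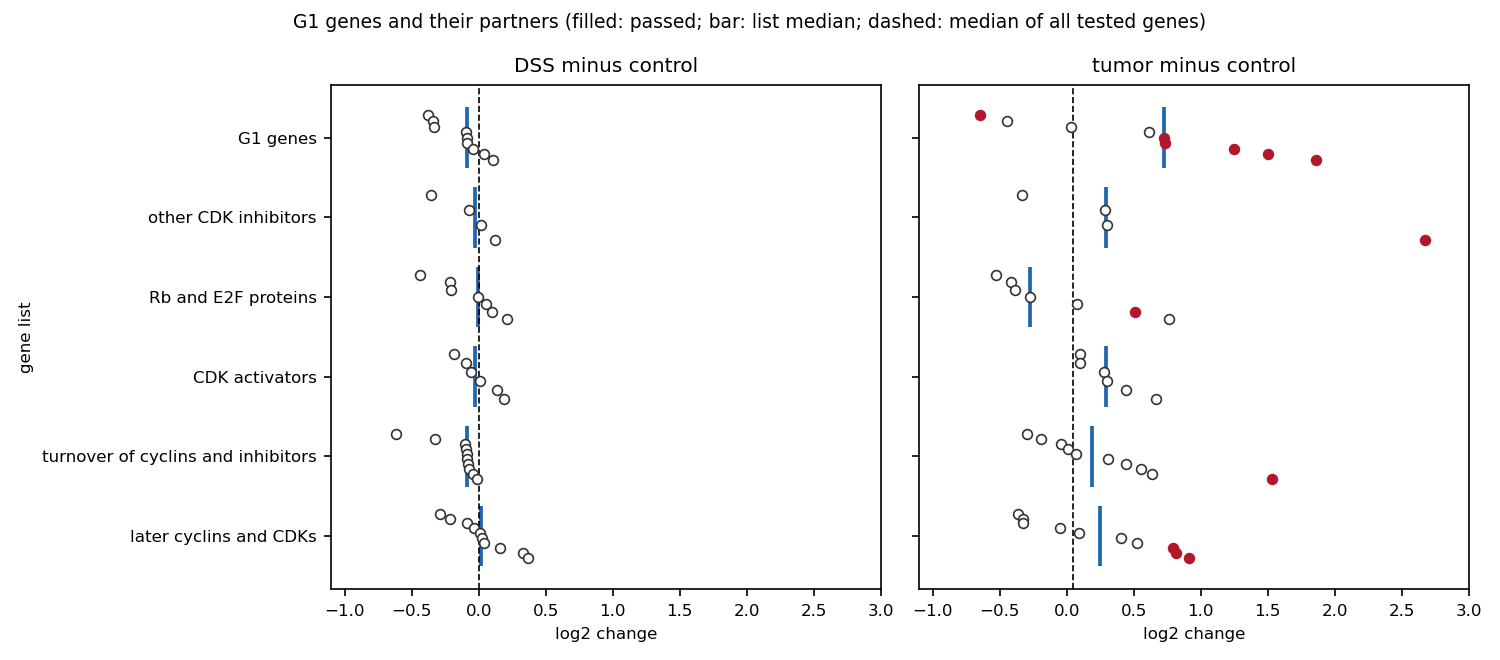
Log2 change (horizontal axes) of the tested G1 genes and of their partners in 5 lists, for DSS minus control (left) and tumor minus control (right); points are genes, filled where they passed, blue bars list medians and dashed lines the median of all tested genes. On the right the list median of the G1 genes is 0.73, and the single filled points of the other CDK inhibitors and of the turnover list are Cdkn1c at 2.68 and Cks1b at 1.53.

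The scaling of the arrays bears on the size of these changes. Centring each array on its median moved the median of all genes in tumor against control crypts from 0.046 to -0.20, and the share of higher among called genes from 56.9% to 34.6%, with 49.3% under quantile normalization. Centring shifts every gene of an array alike, so changes relative to that median stay the same by construction. Quantile normalization does not, and relative to the median of all genes Cdk4 then had 1.24 against 1.21 as deposited, Ccne2 0.595 against 0.69 and Cdk2 0.588 against 0.68. The calls of Ccne2 and Cdk2 ended after centring, at changes of 0.49 (adjusted p = 0.175) and 0.48 (adjusted p = 0.124), and with quantile normalization, at 0.56 (adjusted p = 0.106) and 0.55 (adjusted p = 0.0657).

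The 5 genes nearest to Cdk4 in log2 profile, each centred on its own mean over the 6 arrays, were Sap30, Tnfaip8l1, Lig1, Tacc3 and Dnmt3b, at Euclidean distances of 0.19, 0.235, 0.28, 0.30 and 0.30. Sap30, a subunit of a histone deacetylase complex, had intensities of 424 and 440 in control (439.5 before rounding), 309 and 349 in DSS and 1035 and 954 in tumor crypts. Lig1, the DNA ligase of replication, had values of 281 and 273, 188 and 199, and 560 and 706 (559.6 before rounding). Tacc3 is a protein of the mitotic spindle and Dnmt3b a DNA methyltransferase, and their changes from control to tumor were 1.31 and 1.04. Each of the 5 had the DSS mean below the control mean and the tumor arrays above all others. They were chosen for likeness to Cdk4 on these same 6 arrays, so the shared pattern follows from the choice and supports nothing further.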

How the data were processed

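The authors deposited MAS5 signal intensities, unlogged, 1 value per probe set and array; MAS5 is named in the submitters' processing notes, and its version is not given in these sources. Each array had a trimmed mean of 500.2 as deposited, computed from the values. Of 22690 probe sets, 64 controls were left out; of the other 22626, 20380 had 1 gene symbol in the platform's table, 691 several and 1555 none. Values were log2-transformed after adding 17.8, the 25th percentile of all intensities. Only probe sets that exceeded the array median 2 or more times in 6 were kept (12146), and each gene's brightest one was tested (7456 genes). All 6 arrays were fitted by group in limma 3.58.1 (R 4.3.3) with an intensity trend, 2-sided, calling genes at a Benjamini-Hochberg adjusted p under 0.05. The code was tested on simulated data. Members, lists, tests and alternatives were chosen with earlier results of these data known. All 10 members are named; of each partner list, up to 3 called genes per direction by smallest p, else the 1 of smallest p; and the 5 genes nearest to the member of smallest p. No scan dates were used here, and the labels do not say how the pools relate across groups. Figures were drawn with matplotlib 3.10.9 in Python 3.11.15.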

Additional observations from a re-analysis of the deposited data

How the results depend on the processing

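Each result was recomputed under 19 alternatives. Ccnd1 and Cdk4 kept direction and call in all of them in both tumor comparisons, and no G1 gene passed in DSS against control crypts in any. The number of G1 genes called in tumor against control crypts, 6, was 3 without the filter, 3 with the 2 groups alone, 3 with the 2 groups alone and the replicate block, and 2 to 4 with 1 array left out; in tumor against DSS crypts, 7, it was 4 without the filter, 4 with the 75th percentile filter, which leaves fewer members to test, and 2 to 7 with 1 array left out. The cause of the other losses was not tested. Over the 13 alternatives that left out no single array, the tumor against control count ranged from 3 to 7. The tumor against DSS count ranged from 4 to 8 over the same alternatives. Signs turned only for values that passed under neither setting, nearly all with 1 array left out. With 1 array left out, DSS minus control ranged from -0.688 to 0.021 for Ccnd1, -0.301 to 0.22 for Ccnd2, -0.064 to 0.284 for Ccnd3, -0.839 to 0.647 for Ccne1, -0.023 to 0.098 for Cdkn1b and -0.211 to 0.035 for Cdkn2b. Ccnd3 ranged from -0.239 to 0.309 in tumor minus control and from -0.349 to 0.199 in tumor minus DSS crypts, and the former was -0.133 with quantile normalization and -0.213 with median centring. Of 493 single-gene values 412 kept direction and side of the threshold, 59 lost a call and 8 gained one.

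With the replicate block in the 3-group fit, 7 G1 genes passed against control, Ccnd2 being added (adjusted p = 0.0348), 7 against DSS and 0 in DSS crypts. Deviations of same-numbered arrays correlated across 7456 genes at 0.45 for control and DSS, 0.08 for control and tumor and 0.44 for DSS and tumor arrays; with 2 numbers this does not show that the numbers pair the arrays. Counts over all genes moved by over 1.5 times in tumor against control crypts (1686) to 852 when control replicate 2 was left out, 702 when tumor replicate 2 was, and 1103 under the 75th percentile filter. In tumor against DSS crypts (1952) they moved to 1262 under that filter and to 922, 1121 and 943 on leaving out DSS replicate 1, DSS replicate 2 and tumor replicate 2. In DSS against control crypts (0) they moved to 114 with the 2 groups alone and the replicate block and 2 without DSS replicate 1. The 75th percentile filter left 4160 genes to test instead of 7456. The share called under it was 26.5% against 22.6% in tumor against control crypts. In tumor against DSS crypts that share was 30.3% against 26.2%. Poly-A controls were highest on control replicate 1 and DSS replicate 1, and with a block for these arrays the calls of Cdk2 (0.67), Cdkn2b (-0.57), Tfdp1 (0.52) and Cdk1 (0.73) against control ended and Ccnd2 gained one (0.76), while against DSS those of Cdk2 (0.76), Cdkn2b (-0.48), E2f8 (0.98) and Rbl2 (-0.525) ended. Signal over background limits Cdk6 and Ccne1.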
